A study of Homo sapiens with 12 samples.

Results

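The mRNA of 10 genes of cellular iron handling was examined in sorafenib-resistant and parental hepatocellular carcinoma (HCC) cells. They were the carrier TF, the receptors TFRC and TFR2, the transporter SLC11A2, the ferritin subunits FTH1 and FTL and the ferritin receptor NCOA4. The others were the exporter SLC40A1, the hormone HAMP and the RNA-binding regulator IREB2. The 10 genes were chosen by gene symbol from the 27249 genes with Ensembl identifiers, and all 10 had a value in all 12 samples. Huh7 and HepG2 are human liver cancer cell lines, both labelled with the genotype WT, and each was sequenced as parental cells and as cells made resistant to sorafenib, a multikinase inhibitor, with 3 samples in each of the 4 groups. Resistant cells received a first dose of 10 μmol for 24 h, the survivors were expanded, and the exposure was repeated at rising doses for 8 months. The labels give 1 resistant derivative per line and do not say that the 3 samples of a group came from separate cultures, so the p-values measure only the spread between these samples.

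Hepatocytes take up iron bound to transferrin through transferrin receptor 1, store it in ferritin shells built of heavy and light chains, and release it through ferroportin. Hepcidin, a peptide hormone that hepatocytes secrete, binds ferroportin and causes its degradation. Inside the cell, the iron regulatory proteins IRP1 (ACO1) and IRP2 (IREB2) bind hairpins in mRNAs, the iron-responsive elements, when iron is scarce. Bound in the 5′ untranslated region they block translation, and bound in the 3′ untranslated region of the TFRC mRNA they stabilize it, so mRNA levels of the ferritins and of ferroportin do not show their protein levels.

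The elements are shown because the region that holds them goes with the type of control. The search finds only those that meet the rule below, so it does not sort all 10 genes. They were found in GENCODE 29 transcripts on GRCh38 by the letters CNNNNNCAGTGN followed by 5 bases on the transcript strand, with the last loop base not G and the 5-base arms pairing with at most 1 G-T pair. Each is 28 bases, with the loop in capitals. In the 5′ untranslated region this pattern occurs in 10 of 18722 genes (0.053%), and FTH1, FTL and SLC40A1 are among them.
FTH1: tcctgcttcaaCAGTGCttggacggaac
FTL: tcttgcttcaaCAGTGTttggacggaac
SLC40A1: aacttcagctaCAGTGTtagctaagttt
In the 3′ untranslated region it occurs in 52 of 19565 genes (0.27%). The TFRC mRNA holds 4 copies that meet this rule, with different arms.
TFRC copy 1: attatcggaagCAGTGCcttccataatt
TFRC copy 2: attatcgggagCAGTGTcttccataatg
TFRC copy 3: tgtatcggagaCAGTGAtctccatatgt
TFRC copy 4: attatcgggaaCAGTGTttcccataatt
A single match also lies in the 3′ untranslated region of the 1 coding TF transcript of the annotation, which is 20602 bases long. No match was found in SLC11A2, TFR2, HAMP, NCOA4 or IREB2, which says only that no stretch of the transcripts searched met both the letters and the pairing rule.

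The sequence around the HAMP start is shown because HAMP had the largest change of the 10 genes in both lines. The RefSeq promoter (GRCh38.p14, chr19:35282278-35282577, plus strand) covers 250 bases before and 50 after the start. Capitals mark GGCGCC, the core of the element through which bone morphogenetic protein signals reach HAMP, and TTCTTGGAA, the site known to be bound by STAT3.
HAMP promoter: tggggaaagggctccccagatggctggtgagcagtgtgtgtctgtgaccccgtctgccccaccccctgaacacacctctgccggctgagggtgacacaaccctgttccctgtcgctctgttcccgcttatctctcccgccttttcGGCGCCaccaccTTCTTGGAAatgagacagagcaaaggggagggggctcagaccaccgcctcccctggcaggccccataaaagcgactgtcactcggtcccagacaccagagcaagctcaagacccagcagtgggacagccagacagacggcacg
The letters GGCGCC begin 105 bases before the start and occur in 19.2% of 35116 promoters of this length, and TTCNNNGAA, which begins 93 bases before it, occurs in 7.7%. Both motifs read the same on either strand and do not overlap.

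Levels are called FPKM here, reads or fragments scaled by exon length and sequencing depth, and the FPKM steps correspond to 12290126 to 19285961 reads per sample. Within each line every resistant sample had more reads than every parental one. Huh7 had 18972394 to 19285961 reads in resistant and 16158302 to 17944445 in parental samples. HepG2 had 16935536 to 18281779 in resistant and 12290126 to 15728850 in parental samples. The part of depth in the changes was not tested. A gene is said to have risen or fallen where limma gave a Benjamini-Hochberg adjusted p under 0.05 over all genes tested, and to be differentially expressed where log2(FPKM + 1) also changed by more than 1. Changes on this scale understate those of genes with low levels. In bulk RNA, fewer cells of a type and less RNA per cell cannot be told apart. All 9 hepatocyte and epithelial markers examined had at least 1 FPKM in all 12 samples. In Huh7, 4 of the 9 rose (HNF4A, KRT8, KRT18 and APOA1), 3 fell (AFP, ALB and APOB) and 2 did not pass. Of all genes tested in Huh7, 32.7% rose and 37.4% fell. In HepG2, AFP and ALB fell and 7 did not pass, where 11.6% of all genes tested rose and 8.43% fell. Their summed level was lower in resistant than in parental cells, at 5310 to 5396 against 7761 to 9514 FPKM in Huh7 and 3979 to 4309 against 5005 to 6053 FPKM in HepG2. AFP, a fetal liver protein, made a large part of this sum, with means of 2291.1 against 5331.9 FPKM in Huh7 and 366.3 against 1393.9 FPKM in HepG2. Markers of leukocytes, endothelium, stroma and red cells summed to 2.75 to 5.8 FPKM in Huh7 and 16.2 to 26.7 FPKM in HepG2, where ACTA2 had 13.4 to 21.6 FPKM. Of these 9 markers, HBB was not analysed here, CD68 had at most 0.116 FPKM, and HBA1 was at 0 in every sample except 1 of resistant HepG2. PECAM1, an endothelial marker with at most 3.61 FPKM, rose in Huh7 by 0.31 and fell in HepG2 by 0.81 on the log2 scale. CD14, a monocyte marker, was at 1.62, 1.24 and 1.9 FPKM in resistant and 0.591, 0.818 and 0.131 FPKM in parental Huh7 cells, and entered the test through the resistant samples alone. The part of these markers in the values that follow was not tested.

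In Huh7 the resistant cells had more mRNA of TFR2, FTH1, SLC40A1 and HAMP and less of IREB2. These calls held in all 6 fits that left out a sample, though the level and change of FTH1 are uncertain (below). FTL and TFRC also rose, but passed in only 3 and 1 of the 6 fits. Of the 10 genes, 6 rose, where 32.7% of all genes tested did, and 1 fell, where 37.4% did. TFR2 and HAMP were differentially expressed upward (8.59% of all genes) and IREB2 downward (14% of all genes). The groups did not overlap for 8 of the 10 genes, against 74.5% of all genes. The median change was 0.57 on the log2 scale, beside -0.04 for all genes tested. Across genes the Huh7 change followed the GC content of the longest transcript of each gene, with a Spearman correlation of 0.62 over 12554 genes, which are not independent replicates. A fit in which this trend was removed from each library is therefore given beside the Huh7 changes of iron genes that it moves by over 1.5 times, and the part of GC content in these values was not tested further.

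In HepG2 only HAMP passed the test, which it entered through the parental samples alone, and it fell. With limma none of the 10 rose, where 11.6% of all genes tested did, and 1 fell, where 8.43% did. SLC40A1 and NCOA4 were higher at an unadjusted p under 0.05, and limma-voom on reads called both higher. No gene was differentially expressed upward (3.29% of all genes), and HAMP was so downward (2.98%). The groups did not overlap for 4 of the 10 genes (HAMP, TFR2, SLC40A1 and NCOA4), against 40.4% of all genes. The median change was -0.04, beside 0.12 for all genes. The Spearman correlation of the change with GC content across 11762 genes was 0.04. The change of HepG2 differed from that of Huh7 for 5 of the 10 genes (TFRC, TFR2, FTH1, HAMP and IREB2) by the interaction test, which called 56.7% of all genes tested.

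**Figure D1:**
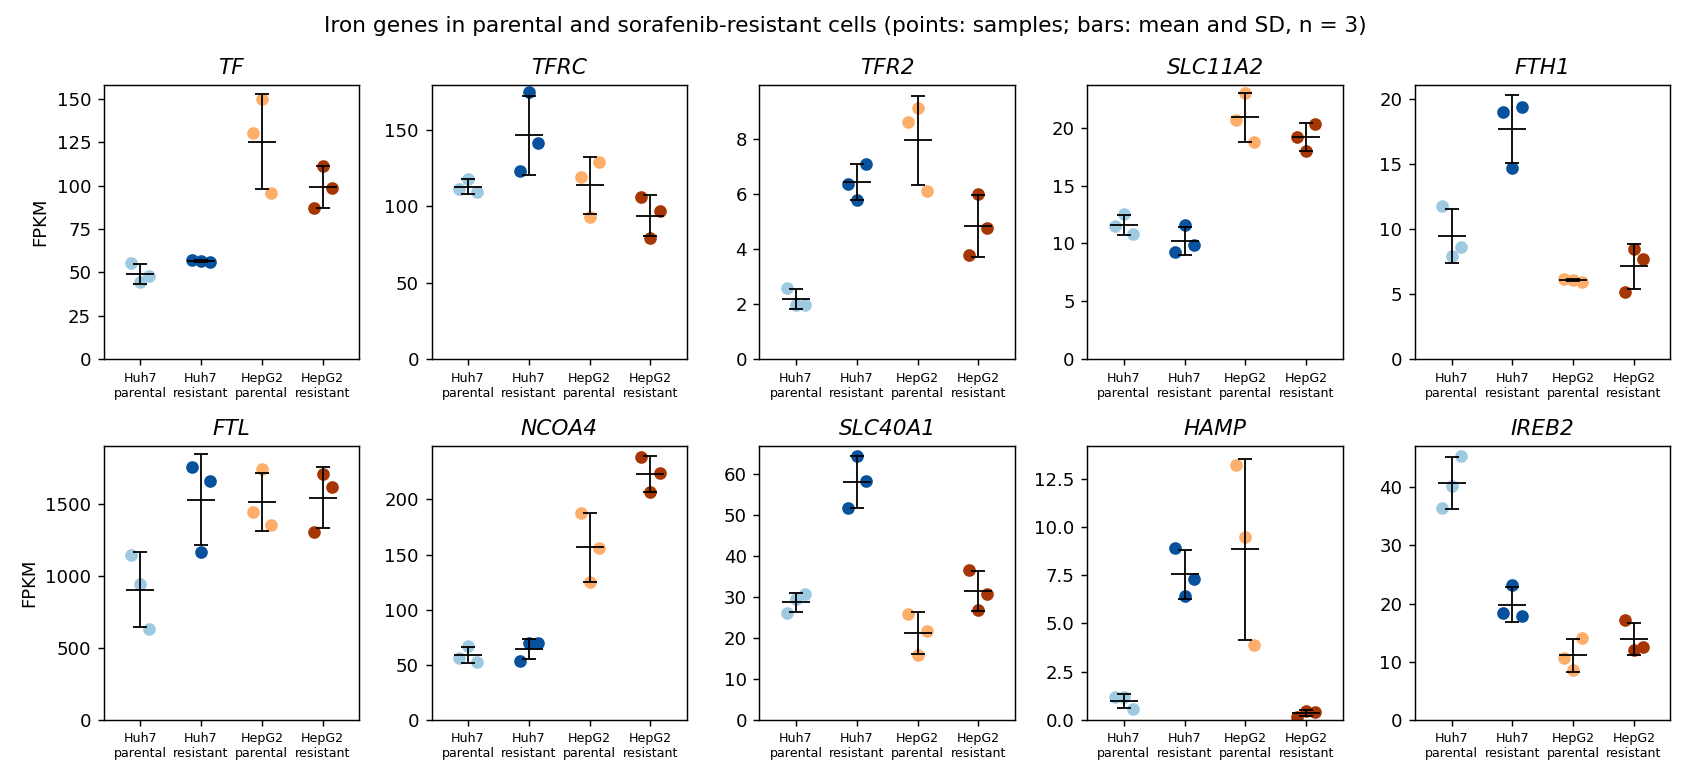
FPKM (vertical axes, linear, from 0) of the 10 iron genes in the 4 groups (horizontal axes), with 1 point per sample and bars for the mean and SD of 3 samples. HAMP is higher in all resistant than in all parental Huh7 samples and lower in all resistant than in all parental HepG2 samples.

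HAMP encodes hepcidin and lies on chromosome 19 at 35280716 to 35285143 on the plus strand. In parental Huh7 cells it was at 1.2, 1.2 and 0.555 FPKM, and in resistant Huh7 cells at 8.91, 6.43 and 7.29 FPKM. In parental HepG2 cells it was at 13.2, 9.49 and 3.87 FPKM, and in resistant HepG2 cells at 0.157, 0.436 and 0.425 FPKM. The resistant Huh7 samples thus stood in the range of the parental HepG2 samples, and the resistant HepG2 samples were the lowest of all 12. Mean FPKM was 7.64-fold higher in resistant Huh7 cells, with a log2 change of 2.11 (SE 0.173, adjusted p = 3.61e-05, limma). Mean FPKM was 26.1-fold lower in resistant HepG2 cells, with a log2 change of -2.75 (SE 0.351, adjusted p = 0.00188, limma). In HepG2 HAMP reached the level required for testing in the parental samples alone, so a difference was built into its entry, and without that filter the adjusted p was 0.0175. The resistant HepG2 values rest on 8, 24 and 22 reads, and the other 9 samples on 27 to 521 reads. Testing the reads themselves with limma-voom gave log2 changes of 2.91 in Huh7 and -4.58 in HepG2. The difference between the lines was -4.86 (95% interval -5.84 to -3.89, adjusted p = 9.28e-06, limma). Both calls held in all fits that left out 1 sample, which kept the filter set on all 6 samples of the line. For HepG2 these fits therefore share the entry through the parental samples and do not test it. The exon length counted for HAMP is 3010 bases against 652 for its principal transcript, so its FPKM would be higher if scaled by that transcript alone.

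SLC40A1 encodes ferroportin, the cell's iron exporter and the target of hepcidin, and lies on chromosome 2 at 189560579 to 189583758 on the minus strand. In parental Huh7 cells it was at 26.1, 29.6 and 30.6 FPKM, and in resistant Huh7 cells at 51.8, 64.5 and 58.2 FPKM. In parental HepG2 cells it was at 25.9, 15.7 and 21.6 FPKM, and in resistant HepG2 cells at 36.5, 26.9 and 30.8 FPKM. Resistant samples were above the parental ones in both lines. The rise in Huh7 was 2.02-fold in mean FPKM, with a log2 change of 0.99 (SE 0.119, adjusted p = 0.000168, limma), just short of the threshold for differential expression. With the GC trend removed it was 1.40, which passes. In HepG2 the log2 change was 0.57 (95% interval 0.10 to 1.03) and did not pass (adjusted p = 0.0811), but limma-voom on reads gave adjusted p = 0.0414 and removal of the GC trend 0.0441. The interaction of -0.42 did not pass (adjusted p = 0.16, limma), but with the GC trend removed it was -0.90 (adjusted p = 0.00128) and without parental HepG2 sample 2 it was -0.61 (0.0266). The 2 genes of the export step, HAMP and SLC40A1, rose together in Huh7, while in HepG2 HAMP fell and SLC40A1 had higher values.

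TF encodes transferrin, the plasma iron carrier that hepatocytes secrete, and lies on chromosome 3 at 133745956 to 133796640 on the plus strand. It was at 55.3, 44.2 and 48.1 FPKM in parental and 57.1, 56.7 and 55.9 FPKM in resistant Huh7 cells. In HepG2 it was at 130.5, 149.8 and 95.7 FPKM in parental and 87.4, 111.6 and 98.8 FPKM in resistant cells. The Huh7 groups were separated by less than 1 FPKM and the HepG2 groups overlapped. Neither log2 change passed the test, with 0.20 in Huh7 (95% interval -0.05 to 0.46) and -0.32 in HepG2 (-0.76 to 0.12). With the GC trend removed the Huh7 value was 0.64 (adjusted p = 0.00211, limma), and it also passed without parental Huh7 sample 1 (0.29, adjusted p = 0.039). The interaction was -0.52 (adjusted p = 0.0669), and it passed with median-ratio scaling (-0.70, adjusted p = 0.0242) and with the GC trend removed (-1.02, 0.0102).

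TFRC encodes transferrin receptor 1, the main route of iron into dividing cells, and lies on chromosome 3 at 196027183 to 196082189 on the minus strand. In Huh7 it was at 110.9, 118 and 109.3 FPKM in parental and 123.1, 174.5 and 141.1 FPKM in resistant cells, and the groups did not overlap. In HepG2 it was at 119.3, 92.8 and 129 FPKM in parental and 105.7, 79.1 and 96.7 FPKM in resistant cells, and the groups overlapped. The rise in Huh7 stood at the threshold, with a log2 change of 0.36 (95% interval 0.03 to 0.68, adjusted p = 0.0496, limma). It passed in only 1 of 6 fits that left out a sample, the one without resistant sample 1, and the other adjusted p values were 0.0854 to 0.132. Removal of the GC trend gave 0.86 (adjusted p = 0.000287). In HepG2 the change was -0.27 (95% interval -0.68 to 0.14, adjusted p = 0.306), and with the GC trend removed it was -0.37 (adjusted p = 0.0291). The interaction was -0.63 (adjusted p = 0.0354, limma), and it passed in 3 of 12 fits that left out a sample.

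TFR2 encodes transferrin receptor 2, a sensor of transferrin-bound iron on hepatocytes that acts upstream of HAMP, and lies on chromosome 7 at 100620416 to 100642779 on the minus strand. It was at 2.59, 1.97 and 1.95 FPKM in parental and 6.37, 5.77 and 7.08 FPKM in resistant Huh7 cells. In HepG2 it was at 8.62, 9.11 and 6.09 FPKM in parental and 3.77, 6 and 4.75 FPKM in resistant cells. All resistant samples were above the parental ones in Huh7 and below them in HepG2. Mean FPKM was 2.95-fold higher in resistant Huh7 cells, a log2 change of 1.23 (SE 0.126, adjusted p = 8.85e-05, limma), which became 0.71 (adjusted p = 0.000172) with the GC trend removed. The longest TFR2 transcript has a GC content of 62%, the highest of the 10 genes. In HepG2 the change of -0.61 (95% interval -1.07 to -0.16) did not pass (adjusted p = 0.0626). It passed with limma-voom on reads (adjusted p = 0.0318), median-ratio scaling (0.045), the GC trend removed (0.00565) and without parental HepG2 sample 3 (0.0378). The interaction was -1.84 (95% interval -2.37 to -1.31, adjusted p = 0.000105). The 2 genes of hepcidin signalling among the 10, TFR2 and HAMP, therefore lay on the same side of the parental samples within each line.

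SLC11A2 encodes DMT1, which carries ferrous iron across the endosomal membrane, and lies on chromosome 12 at 50979401 to 51028566 on the minus strand. It was at 11.5, 12.5 and 10.8 FPKM in parental and 9.28, 11.6 and 9.83 FPKM in resistant Huh7 cells, with overlapping groups. In HepG2 the values were 20.7, 23 and 18.8 FPKM in parental and 19.2, 18 and 20.3 FPKM in resistant cells, again overlapping. Neither change passed, with -0.17 in Huh7 (95% interval -0.43 to 0.09) and -0.11 in HepG2 (-0.43 to 0.20). The sign in Huh7 turned with the GC trend removed, to 0.20 (adjusted p = 0.0464, limma).

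**Figure D2:**
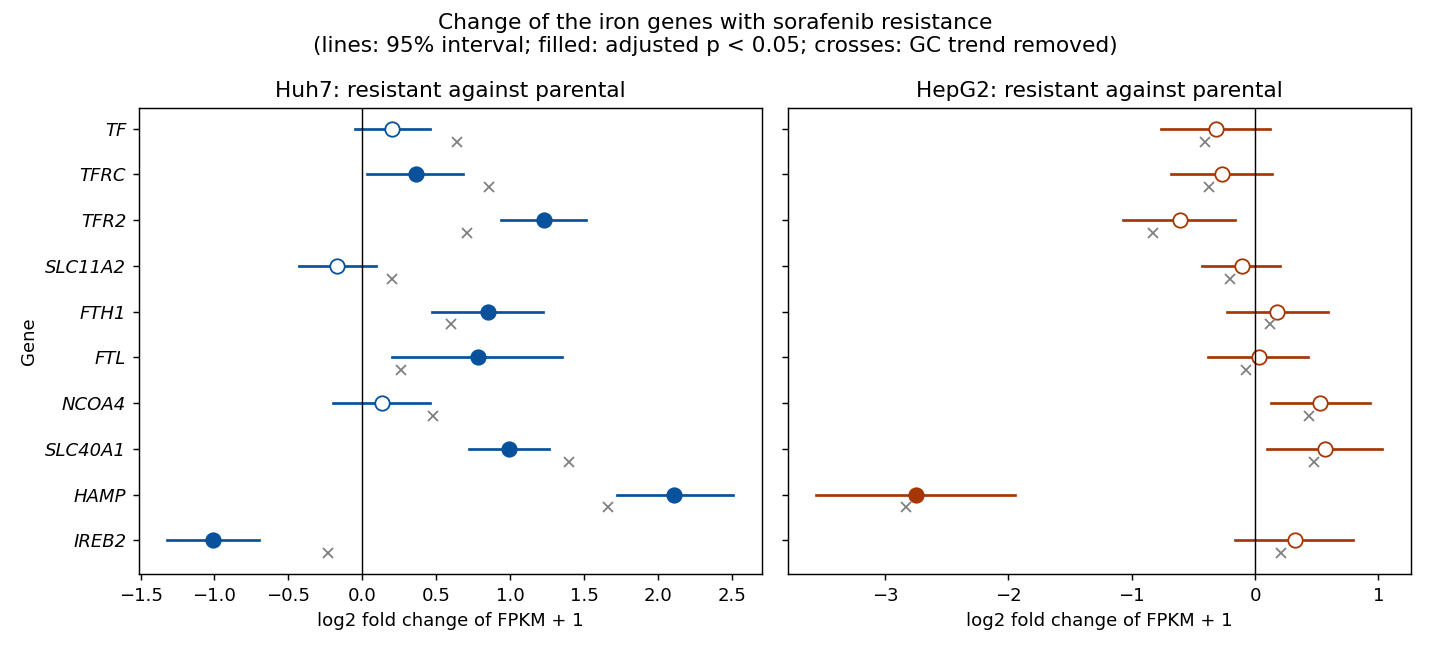
Log2 fold change of FPKM + 1 (horizontal axes), resistant against parental, for the 10 genes (vertical axis) in Huh7 and HepG2, with 95% intervals, filled circles for adjusted p under 0.05 and crosses for the value with the GC trend removed. In Huh7 the cross for IREB2 moves from -1.01 to -0.23, while in HepG2 the crosses stay close to the circles.

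FTL encodes the ferritin light chain and lies on chromosome 19 at 48965301 to 48966878 on the plus strand. It was the most abundant of the 10 mRNAs in each sample, ranking between 3 and 11 among all genes by FPKM. Parental Huh7 cells had 1142.5, 941.8 and 629.5 FPKM, and resistant Huh7 cells had 1757.3, 1167.5 and 1659 FPKM. The lowest resistant sample was only slightly above the highest parental one. HepG2 had 1445, 1739.7 and 1351.9 FPKM in parental and 1307.7, 1709.8 and 1615 FPKM in resistant cells, which overlapped. The Huh7 rise of 0.78 (SE 0.253, adjusted p = 0.023, limma) was lost with the GC trend removed (0.26, adjusted p = 0.268), where the longest FTL transcript has 56.3% GC. It was also lost without resistant sample 1 (0.66, adjusted p = 0.081), without resistant sample 3 (0.71, 0.0597) and without parental sample 3 (0.54, 0.052), and with no filter on low values (adjusted p = 0.124). In HepG2 the change was 0.03 (95% interval -0.38 to 0.43). The interaction of -0.75 did not pass (adjusted p = 0.0742), but it did with median-ratio scaling (-0.93, adjusted p = 0.0322) and limma-voom on reads (-0.66, 0.0457).

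FTH1 encodes the ferritin heavy chain, which oxidizes iron on entry into the shell, and lies on chromosome 11 at 61959718 to 61967660 on the minus strand. Parental Huh7 cells had 11.8, 7.92 and 8.63 FPKM, and resistant Huh7 cells had 19, 14.7 and 19.4 FPKM, without overlap. HepG2 had 6.12, 6.09 and 5.95 FPKM in parental and 5.18, 8.49 and 7.7 FPKM in resistant cells, with overlap. The Huh7 change was 0.85 (SE 0.165, adjusted p = 0.00191, limma) and the HepG2 change 0.18 (95% interval -0.23 to 0.59). The interaction of -0.67 (adjusted p = 0.0425) passed in 4 of 12 fits that left out a sample, and was not past the test with limma-voom on reads (adjusted p = 0.071) or the GC trend removed (0.0702).

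The level and change of FTH1 are uncertain. FTH1 was at 1.17% ± 0.0897 of FTL FPKM in resistant Huh7 cells, 1.08% ± 0.268 in parental Huh7 cells, 0.456% ± 0.0533 in resistant HepG2 cells and 0.405% ± 0.0478 in parental HepG2 cells (SD, n = 3). Of the 50-base windows of the principal FTH1 transcript, 78.7% matched transcripts of other genes, counting either strand. The shares were 18.3% for FTL, 8.5% for NCOA4, 4.3% for TF and at most 0.1% for the other 6 genes. More of the FTH1 windows matched BEST1, a gene on the opposite strand, than any other gene. The share for FTH1 therefore does not give its identity with its processed copies (below). BEST1 on the opposite strand overlaps 62.4% of the FTH1 exon bases, and its own level was at most 1.84 FPKM. The sources used here do not state whether reads were counted by strand. The 13 rows of FTH1 processed copies (FTH1P) summed to more than FTH1 in all 12 samples, from 14.9 to 47.5 FPKM. In Huh7 these sums were 47.5, 39.6 and 37 FPKM in resistant and 26.6, 22.2 and 21.3 FPKM in parental cells, without overlap, as for FTH1. FTH1P2 alone exceeded FTH1 in 6 of 12 samples, with means of 21.2 FPKM in resistant and 6.94 FPKM in parental Huh7 cells. The copies of FTL and NCOA4 summed to at most 1.7 and 0.495 FPKM. How reads that match several genes were counted is not given in the sources used here.

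**Figure D3:**
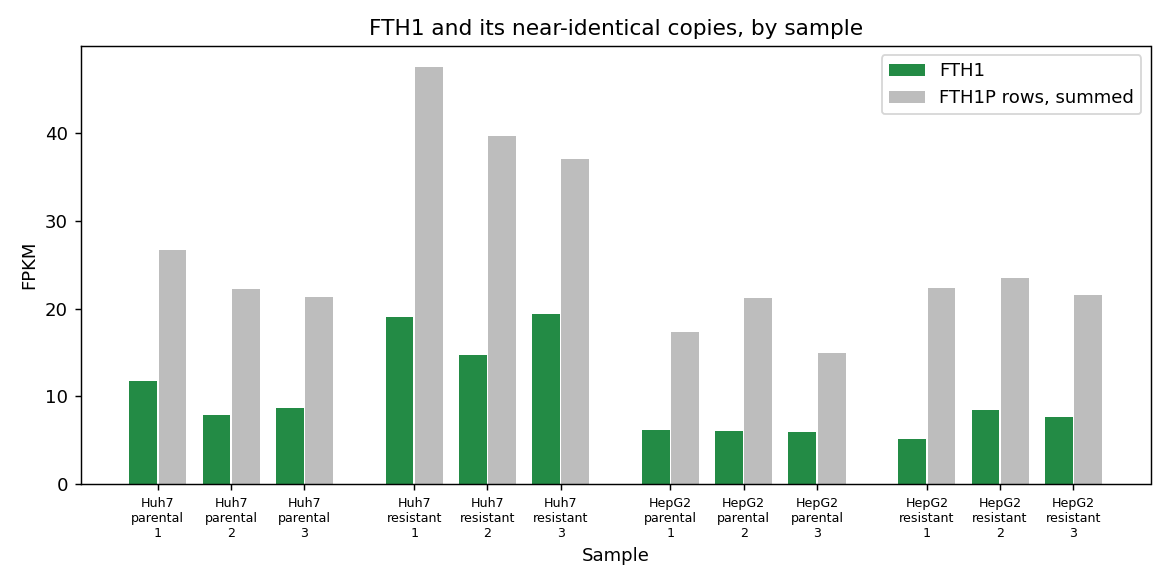
FPKM (vertical axis, from 0) of the FTH1 row and of the summed FTH1P rows in the 12 samples (horizontal axis), grouped by line and resistance. The summed copies are above FTH1 in all 12 samples, at 37.0 to 47.5 FPKM in resistant and 21.3 to 26.6 FPKM in parental Huh7 cells.

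NCOA4 encodes the cargo receptor that brings ferritin to the lysosome, where its iron is released, and lies on chromosome 10 at 46005088 to 46030714 on the minus strand. Parental Huh7 cells had 56.5, 66.6 and 52.8 FPKM, and resistant Huh7 cells had 53.7, 69.6 and 70 FPKM, with overlap. In HepG2 the levels were 187.7, 125.5 and 156.1 FPKM in parental and 238.9, 206.6 and 224.2 FPKM in resistant cells, with all resistant samples above. The Huh7 change was 0.13 (95% interval -0.20 to 0.46), and 0.48 (adjusted p = 0.00891) with the GC trend removed. The HepG2 change of 0.53 (95% interval 0.13 to 0.93) did not pass (adjusted p = 0.0662, limma). It passed with limma-voom on reads (adjusted p = 0.0294), with the GC trend removed (0.0443) and without parental HepG2 sample 1 (0.0485). The interaction was 0.40 (95% interval -0.10 to 0.90) and did not pass.

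IREB2 encodes IRP2, the RNA-binding protein that is degraded when iron is plentiful, and lies on chromosome 15 at 78437431 to 78501456 on the plus strand. Parental Huh7 cells had 36.5, 40.3 and 45.3 FPKM, and resistant Huh7 cells had 18.3, 23.2 and 17.8 FPKM. HepG2 had 10.6, 8.49 and 14 FPKM in parental and 17.1, 12 and 12.6 FPKM in resistant cells. Every resistant Huh7 sample was below every parental one, while the HepG2 groups overlapped. Mean FPKM was 2.06-fold lower in resistant Huh7 cells, a log2 change of -1.01 (SE 0.134, adjusted p = 0.000269, limma). With the GC trend removed the change was -0.23 (adjusted p = 0.0183), no longer differential expression. The longest IREB2 transcript has a GC content of 38.3%, the lowest of the 10 genes. The HepG2 change was 0.32 (95% interval -0.16 to 0.79), and the interaction was 1.33 (SE 0.259, adjusted p = 0.00127).

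Before resistance, the lines differed in most of these genes. Parental HepG2 cells had higher levels of 6 of the 10 (26.2% of all genes tested) and lower levels of 2 (39% of all genes). TF, TFR2, HAMP and NCOA4 were differentially expressed upward (12.5% of all genes) and IREB2 downward (19.4% of all genes). HAMP was 8.96-fold higher in mean FPKM (log2 difference 2.19, SE 0.362, adjusted p = 0.000898, limma) and TFR2 3.66-fold higher (1.48, SE 0.176). TF was 2.55-fold and NCOA4 2.67-fold higher, with log2 differences of 1.31 and 1.39. IREB2 was 3.69-fold lower (log2 difference -1.81, SE 0.186). SLC11A2 (0.79) and FTL (0.77) were higher by less, FTH1 (-0.55) was lower, and SLC40A1 (-0.45, 95% interval -0.88 to -0.03, adjusted p = 0.0601) and TFRC (0.00, -0.37 to 0.36) did not pass. FTL no longer passed without parental Huh7 sample 2 (adjusted p = 0.0666), parental Huh7 sample 3 (0.101) or parental HepG2 sample 2 (0.0744), nor did FTH1 with median-ratio scaling (0.0503). SLC40A1 passed with limma-voom on reads (0.0172) and without parental HepG2 sample 1 (0.0209). These comparisons share the parental samples with those of resistance. The all-gene median of -0.19 moved to -0.05 with median-ratio scaling, and the TFRC difference, at 0.00, became 0.17.

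Ordered by mean FPKM, HAMP was highest in parental HepG2 cells, followed by resistant Huh7, parental Huh7 and resistant HepG2 cells, and only the first pair of neighbours overlapped. TFR2 had parental HepG2, resistant Huh7, resistant HepG2 and parental Huh7 cells in this order, with overlap in all neighbours but the last pair. For SLC40A1 the order was resistant Huh7, resistant HepG2, parental Huh7 and parental HepG2 cells, with overlap of the middle pair only. IREB2 fell from parental Huh7 to resistant Huh7, resistant HepG2 and parental HepG2 cells, and only the last pair overlapped. NCOA4 was highest in resistant and then parental HepG2 cells, both apart from Huh7, whose 2 groups overlapped. The gene closest to each in its pattern over the 12 samples, by the root mean square difference of centred log2(FPKM + 1) among 10688 genes, was at 0.0802 for TFRC (AC104066.1), 0.0837 for TF (ST3GAL1), 0.113 for TFR2 (APOBEC3F), 0.102 for IREB2 (CAPN7) and 0.0976 for SLC11A2 (CLNS1A). FTH1 was closest to EDC4 (0.114), FTL to RELA (0.117), NCOA4 to GIPC2 (0.161) and SLC40A1 to FUNDC1 (0.206). For HAMP the nearest gene, CLIC1, was at 0.522, and HAMP itself varied by 1.28 around its mean.

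Beyond these 10 genes, 79 other genes of iron and haem biology were counted in 7 lists. In Huh7, 58 were tested, of which 17 rose, 18 fell and 23 did not pass, where 32.7% of all genes tested rose and 37.4% fell. In HepG2, 57 were tested, of which 5 rose, 6 fell and 46 did not pass, where 11.6% of all genes rose and 8.43% fell. The change differed between the lines for 34 of 63, where the interaction test called 56.7% of all genes. These shares are the background for each list that follows.

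Hepcidin regulation had 21 genes. In Huh7, 2 of 15 tested rose and 7 fell (32.7% and 37.4% of all genes), with a median change of -0.13, and in HepG2, 1 of 13 rose and 3 fell (11.6% and 8.43% of all genes), with a median of -0.20. BMPR2, a receptor of bone morphogenetic proteins, fell in Huh7 from 15.1 ± 1.58 to 4.38 ± 0.69 FPKM (SD, n = 3), with a log2 change of -1.59 that became -0.77 with the GC trend removed. BMP2, a ligand of this pathway, fell in Huh7 from 72.7 ± 10.8 to 30.9 ± 1.64 FPKM (-1.20), and was below 1 FPKM in every HepG2 sample. SMAD5, which carries the signal to the nucleus, fell in Huh7 by 1.14 (0.28 with the GC trend removed). ID1, a target gene of the pathway, rose in Huh7 from 99.6 ± 13.3 to 205.5 ± 21.2 FPKM (1.04, or 0.50 with the GC trend removed). In HepG2 ID1 fell by 0.64 (adjusted p = 0.044, limma), a call that held only without parental HepG2 sample 3 among the 6 fits that left out a sample (adjusted p otherwise 0.0681 to 0.146). ID1 changed in the same direction as HAMP in each line, while BMP2, BMPR2 and SMAD5 fell in Huh7, where HAMP rose. By group means, other genes of the list went in the direction of HAMP in both lines, in 1 line or in neither. NEO1 went from 15.4 ± 1.79 to 25.8 ± 0.961 FPKM in Huh7 and from 6.97 ± 1.48 to 6.3 ± 0.48 FPKM in HepG2, where its groups overlapped. BMP6 went from 5.95 ± 2.26 to 2.68 ± 0.0826 FPKM in HepG2 and from 0.928 ± 0.304 to 0.848 ± 0.172 FPKM in Huh7. SMAD6 went from 2.25 ± 0.465 to 4.84 ± 0.821 FPKM in HepG2, where HAMP fell, and from 20.9 ± 2.99 to 20 ± 1.2 FPKM in Huh7. SMAD7 went from 9.42 ± 0.648 to 10.2 ± 1.56 FPKM in HepG2 and from 16.7 ± 1.81 to 20.2 ± 2.24 FPKM in Huh7. The part of this pathway in the HAMP values was not tested.

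The list of iron oxidation and export partners had 3 genes, of which both tested in Huh7 fell. CP, ceruloplasmin, the ferroxidase that hepatocytes secrete, fell in Huh7 from 8.14 ± 2.29 to 0.95 ± 0.0612 FPKM (log2 change -2.20, SE 0.175, adjusted p = 3.27e-05, limma). In HepG2 it was at 13.1 ± 5.88 in parental and 9.41 ± 1.63 FPKM in resistant cells and did not pass (adjusted p = 0.353). HEPH, hephaestin, a membrane ferroxidase, fell in Huh7 from 2.79 ± 0.259 to 0.665 ± 0.0382 FPKM, having reached the level for testing in the parental samples alone, and had at most 0.0249 FPKM in HepG2. SLC40A1, the exporter these ferroxidases work with, rose in the same Huh7 samples.

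Of the 2 other genes of the iron-sensing system, ACO1, which encodes IRP1, did not pass in either line (-0.16 in Huh7, or -0.06 with the GC trend removed, and -0.12 in HepG2). FBXL5, the ubiquitin ligase subunit that targets IRP2 for degradation, fell in Huh7 from 19.8 ± 1.66 to 12 ± 2.29 FPKM (log2 change -0.69, adjusted p = 0.0024, limma), as IREB2 did. With the GC trend removed the change of FBXL5 was -0.09 (adjusted p = 0.41). In HepG2 it was 0.25 and did not pass.

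Haem synthesis, transport and breakdown had 20 genes, of which 10 of 18 tested rose and 1 fell in Huh7 (median 0.48, with 32.7% of all genes higher and 37.4% lower), and 3 rose and 1 fell in HepG2 (median 0.11, with 11.6% higher and 8.43% lower). ABCG2, a transporter of porphyrins and of drugs, rose in Huh7 from 2.83 ± 0.149 to 10.7 ± 1.14 FPKM (1.61) and fell in HepG2 from 9.71 ± 0.797 to 5.93 ± 0.205 FPKM (-0.62, adjusted p = 0.014), a call lost in 1 of 6 fits that left out a sample (adjusted p = 0.0816, without resistant HepG2 sample 3). BLVRA, biliverdin reductase, rose in Huh7 from 1.57 ± 0.338 to 6.45 ± 0.463 FPKM (1.54), and ALAS1, the first enzyme of haem synthesis, from 41.9 ± 3.7 to 91.4 ± 5 FPKM (1.11). The haem exporter FLVCR1 fell in Huh7 by 1.09 (0.72 with the GC trend removed) and its relative FLVCR2 rose by 1.03. FLVCR2 also rose in HepG2, by 0.58 (adjusted p = 0.025, limma), a call that held only without resistant HepG2 sample 1 or parental HepG2 sample 1 among the 6 fits that left out a sample (adjusted p otherwise 0.0558 to 0.116). HMOX1, which frees iron from haem, rose in both lines, by 0.49 in Huh7 (adjusted p = 0.00711) and 0.55 in HepG2 (adjusted p = 0.0336). Its Huh7 value was -0.05 with the GC trend removed, and its HepG2 call was lost with median-ratio scaling (adjusted p = 0.0784) and held only without resistant HepG2 sample 1 or parental HepG2 sample 2 among the 6 fits that left out a sample (adjusted p otherwise 0.0763 to 0.155).

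Of 11 genes of uptake and reduction, 2 of 5 tested rose and 2 fell in Huh7, and 1 of 5 rose and 1 fell in HepG2. LCN2, which binds iron-carrying siderophores, fell in HepG2 from 9.44, 5.24 and 2.43 FPKM to 0.148, 0 and 0.109 FPKM, which rest on 4, 0 and 3 reads, and it too entered the test through the parental samples alone. Of 7 genes of iron chaperones and ferritin turnover, 1 of 4 tested rose and 1 fell in Huh7, and the lowest adjusted p of the 4 tested in HepG2 was 0.0963 (limma). Of 15 genes of mitochondrial iron and iron-sulfur clusters, 2 of 12 tested rose and 4 fell in Huh7, and in HepG2 1 of 14 fell and 13 did not pass. CISD1, an iron-sulfur protein of the outer mitochondrial membrane, fell in Huh7 from 7.52 ± 1.45 to 2.79 ± 0.544 FPKM (-1.17), or by 0.22 (adjusted p = 0.057, limma) with the GC trend removed.

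**Figure D4:**
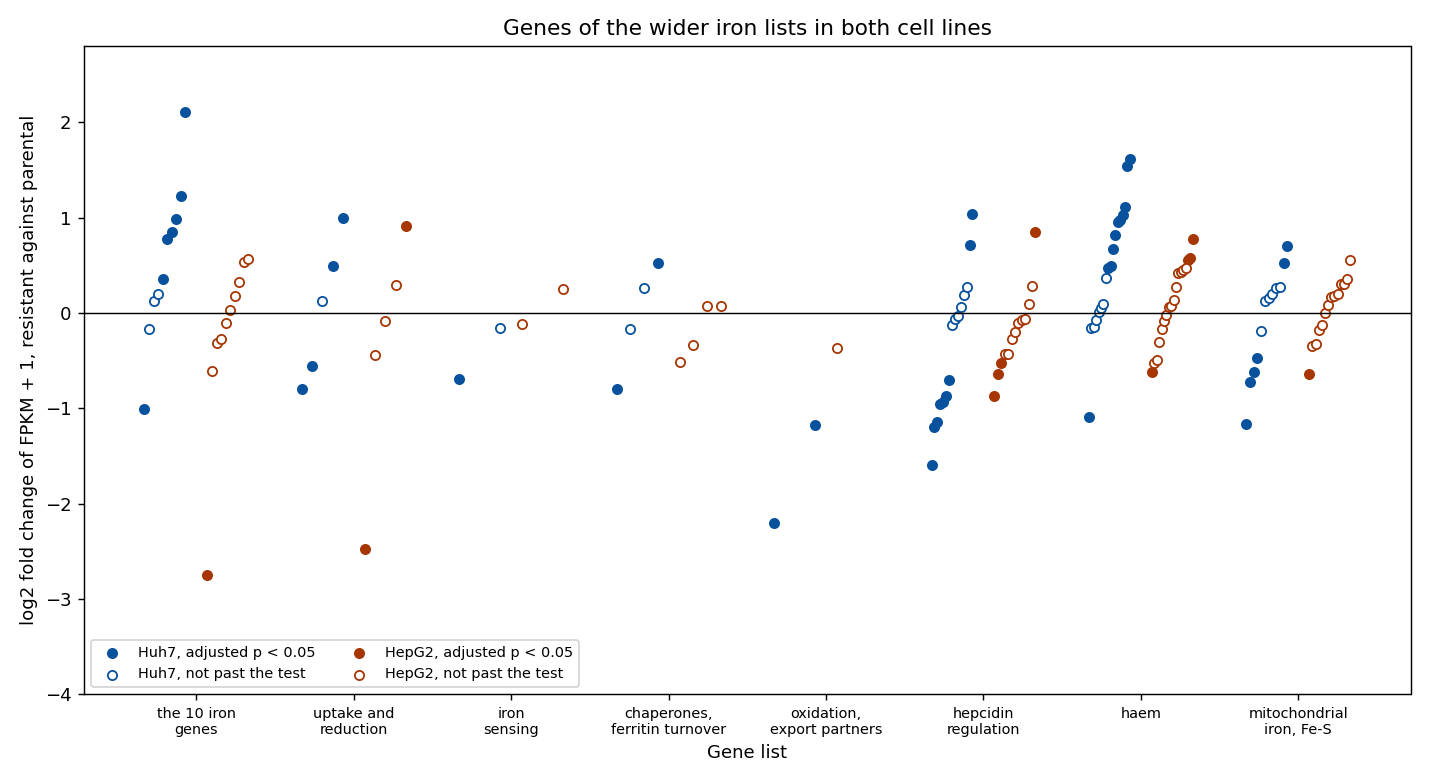
Log2 fold change of FPKM + 1, resistant against parental (vertical axis), for the 10 iron genes and the genes of 7 wider lists (horizontal axis), in Huh7 (blue) and HepG2 (brown), with filled points for adjusted p under 0.05. Filled points are 35 of 58 wider genes in Huh7 and 11 of 57 in HepG2, beside 8797 of 12554 and 2357 of 11762 among all genes tested.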

How the data were processed

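RNA libraries of 12 samples (NEBNext Ultra kit per the labels) had been processed by the authors to FPKM, deposited as 1 table per sample. The unit is not stated in the tables. The values behave as reads scaled by exon length and depth and are called FPKM here, though RPKM could not be told apart. The submitters' processing notes name bcl2fastq and GRCh38. The aligner, the counting tool, the use of strand and the treatment of reads matching several genes are not given in the sources used here. FPKM times exon length (GENCODE 29) fell within 0.05 of whole multiples of 1 step per sample for 96.8% to 97.1% of values of up to 2000 reads, which gave 12290126 to 19285961 reads per sample. The labels name no molecular identifiers, so reads are not independent molecules and read numbers cover counting error only. The 71462 NONCODE rows were not used.

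Values were handled in Python 3.11.15 (pandas 2.3.3, numpy 2.4.6) and plotted with matplotlib 3.10.9. A gene entered a comparison if 3 or more of its 6 samples reached 1 FPKM, and was tested with limma 3.58.1 in R 4.3.3 on log2(FPKM + 1), two-sided, with a variance trend and Benjamini-Hochberg adjustment over all genes tested (12554 in Huh7, 11762 in HepG2, 12796 between parental lines). Differences between lines were tested as the interaction of line and resistance in 12 samples (13628 genes passing the filter in either line). Tested on simulated data, the fit recovered 96% of 100 genes changed by 1.5 (log2) in Huh7, 86% in HepG2, 92% between parental lines and 79% in the interaction. The changed genes were drawn from those above a low mean level, the noise was independent between genes, and no GC trend was simulated. Smaller changes, such as those of most of the 10 genes, were not simulated. The 10 genes and the lists were chosen with earlier results of these data known. Of the wider lists, ACO1, FBXL5, CP, HMOX1 and up to 5 differentially expressed genes per list, by size of change, are named. NEO1, BMP6, SMAD6 and SMAD7 are named outside this rule, beside HAMP. Alternatives were a pseudocount of 0.1, no filter, median-ratio scaling, removal of a lowess curve (span 0.3) against GC content, limma-voom on reads, the replicate number as a block and leaving out each sample. They were also applied to the genes of the wider lists, which was decided after seeing the data. A further marker of other cells is not reported here.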

Additional observations from a re-analysis of the deposited data

Results flagged for a closer look

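For 5 of the 10 genes the change with resistance differed between the lines by the interaction test of limma, which called 56.7% of all genes. The log2 difference, HepG2 minus Huh7, was -4.86 for HAMP, -1.84 for TFR2, -0.67 for FTH1, -0.63 for TFRC and 1.33 for IREB2. HAMP, TFR2 and IREB2 passed in all 12 fits that left out a sample, FTH1 in 4 and TFRC in 3. Groups of 3 samples are too small to look for a sample far from the others.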

How the results depend on the processing

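In HepG2 the count of the 10 genes that passed moved from 1 to 2 with median-ratio scaling, 5 with the GC trend removed, 4 with limma-voom on reads and 4 with the replicate number as a block, and was 1 to 2 when a sample was left out. The genes added were TFR2, SLC40A1, NCOA4 and, with the GC trend removed, TFRC. The interaction count of 5 became 3 with no filter on low values, 4 with a pseudocount of 0.1, 6 with the GC trend removed and 7 with median-ratio scaling. When a sample was left out it was 3 to 6, with 3 without resistant Huh7 sample 3, parental Huh7 samples 2 or 3, or parental HepG2 sample 1. All genes past the test in HepG2 moved from 2357 to 3929 with the GC trend removed and were 904 to 2314 when a sample was left out, with 904 without resistant HepG2 sample 3, 1561 without resistant sample 2 and 1359 without parental sample 1. Their split of 1366 higher and 991 lower turned to 992 and 1286 with median-ratio scaling and to 1859 and 2070 with the GC trend removed. In Huh7 the count of 7 of the 10 genes was 5 to 7 when a sample was left out. It was 9 with the GC trend removed, 5 with no filter on low values and 6 with a pseudocount of 0.1. The wider iron genes past the test in HepG2 moved from 11 to 6 with no filter, 21 with the GC trend removed and 18 with the replicate block, and were 3 to 11 when a sample was left out.

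Directions turned where the change was small. With median-ratio scaling the log2 value was -0.09 for FTL in HepG2, 0.17 for TFRC between parental lines and -0.12 for the interaction of SLC11A2. With the GC trend removed it was 0.20 for SLC11A2 and -0.05 for HMOX1 in Huh7, -0.07 for FTL in HepG2, 0.42 for TFRC between parental lines, and -0.37 for SLC11A2 and -0.01 for NCOA4 in the interaction. Leaving out a sample gave -0.05 to 0.14 for FTL in HepG2, -0.10 to 0.14 for TFRC between parental lines, -0.01 to 0.14 for the interaction of SLC11A2, and in HepG2 -0.18 to 0.02 for BMPR2 and -0.14 to 0.01 for BLVRA. The causes were not tested. FTH1 as a share of FTL rose to 3.94% in resistant Huh7, 3.77% in parental Huh7, 1.92% in resistant HepG2 and 1.58% in parental HepG2 cells when the FTH1P and FTLP rows were added to their genes.

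The correlations of the deviations of same-numbered samples were 0.08, 0.06 and -0.23 in Huh7 and 0.25, 0.44 and -0.01 in HepG2. Not every pair of a line exceeded 0.1, nor did every sample correlate best with its own number, so the numbers were not taken to pair samples. With the replicate block, 7 of the 10 genes passed in Huh7, 4 in HepG2, 8 between parental lines and 7 in the interaction, and 8609 and 3418 of all genes passed in Huh7 and HepG2. The scaling moved the median of all genes from -0.19 to -0.05 between parental lines and from 0.15 to 0.02 in the interaction.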
